A study of Mus musculus with 12 samples.

Results

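The left ventricle (LV) transcriptomes of *Hif1a*+/- and *Wt* offspring of diabetic mothers were compared, 3 samples against 3, so that the groups differed in genotype and shared the exposure. Sex, as read from the libraries, was not matched and is described below. These are 6 of the 12 samples of the series. A gene was tested if it had 10 or more counts in at least 3 of the 6 samples, which held for 14559 of the 46983 genes in the count files and of the 27093 genes with at least 1 count. All mice were of the FVB strain and 12 weeks old, and all 6 had developed in *Wt* mothers made diabetic with streptozotocin, a toxin of pancreatic beta cells, and mated with *Hif1a*+/- males. The *Hif1a*+/- offspring carried 1 null allele in every tissue (tm1jhu), so the genotype was not limited to heart cells, and the 3 mice of a group came from different litters. The other 6 samples, *Wt* and *Hif1a*+/- offspring of non-diabetic pregnancy, were used for the shared estimate of spread and for the comparison of the genotype difference between pregnancies. The study asks how the loss of 1 *Hif1a* allele modifies the effect of maternal diabetes on the offspring heart.

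*Hif1a* encodes the oxygen-regulated subunit of hypoxia-inducible factor 1 (HIF-1). When oxygen is plentiful, prolyl hydroxylases mark the subunit for degradation through the VHL protein; when oxygen falls, the subunit pairs with ARNT and the dimer binds short motifs near genes of glycolysis, angiogenesis and iron and oxygen handling. In the heart HIF-1 is known for its roles in ventricular development, vessel growth and substrate use, and high glucose is known to destabilise the subunit.

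Each library was a 3′-seq library from total LV RNA, and each value is given as TMM-normalised CPM (the count scaled to a common library size), a level that can be compared between samples for 1 gene but not between genes. The 6 libraries held between 17895687 and 39812939 counts on genes. Values are listed in the order *Wt* samples 50, 7 and 80, then *Hif1a*+/- samples 66, 72 and 77, with the mean ± SD (n = 3 in each group). Cardiomyocyte markers summed to between 106000 and 119000 CPM in all 6 libraries, and no marker of that list was at 0, as the labelled tissue implies. The library of *Hif1a*+/- sample 72 stood apart in its sex-linked genes. It held 158 CPM of *Xist*, against 0.23 to 5.99 CPM in the other 5, and 0.352 CPM of the Y-linked *Ddx3y*, against 75.98 to 109 CPM. By these genes sample 72 reads as female and the other 5 libraries as male, so the groups were not matched in sex. The labels give all mice as female and the study describes males. Values without the library of sample 72 are therefore given where they change a result.

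*Hif1a* itself (chromosome 12, 73901375 to 73947530, GRCm38) was read at 47.9, 59.3 and 58.6 CPM in the *Wt* samples (55.2 ± 6.38) and at 70.5, 64.7 and 81.4 CPM in the *Hif1a*+/- samples (72.2 ± 8.48). All 3 *Hif1a*+/- values lay above the *Wt* values. The fitted log2 fold change was 0.39 (SE 0.12), with an edgeR adjusted p of 0.863 and a DESeq2 adjusted p of 0.624. The gene was also higher without overlap after non-diabetic pregnancy (55.7, 57.1 and 71.8 CPM in *Wt* against 89.4, 78.8 and 89.1 CPM in *Hif1a*+/-). 3′-seq reads the end of the transcript, so this level does not check which animals carry the null allele.

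Genes were tested primarily with the quasi-likelihood test of edgeR, with Benjamini-Hochberg adjustment over all tested genes and the study's threshold of an adjusted p under 0.1. This test called 0 of 14559 genes (0%), and the smallest adjusted p, that of *Fbn1*, was 0.165. At an unadjusted p under 0.05 it gave 431 genes higher in *Hif1a*+/- (2.96% of the tested genes) and 343 lower (2.36%). Without sample 72 it gave 371 higher and 240 lower of the 14559 genes. List counts given without sample 72 are to be set beside these, not beside the shares over all 6 samples. In 625 genes (4.29%) all 3 *Hif1a*+/- samples lay above all 3 *Wt* samples, and in 521 genes (3.58%) they lay below. DESeq2, the tool the study used, called 24 of 15525 genes (0.155%), 17 higher and 7 lower, and limma-voom called *Fbn1* only. All 24 had no overlap between the groups. The median log2 fold change of all tested genes was -0.01. The changes described as called are therefore calls of DESeq2 and not of the main test, and without sample 72 DESeq2 called 33 genes, 14 of them among the 24. The 10 that were not called without it were *Aldh1a1*, *Clec3b*, *Clk1*, *Col3a1*, *Dhdh*, *Fmr1nb*, *Ivns1abp*, *Kap*, *Loxl2* and *Txnip*. Without *Wt* sample 50 only *Fbn1* of the 24 was called. The plot of fold change against abundance places these genes among all those tested.

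**Figure D1:**
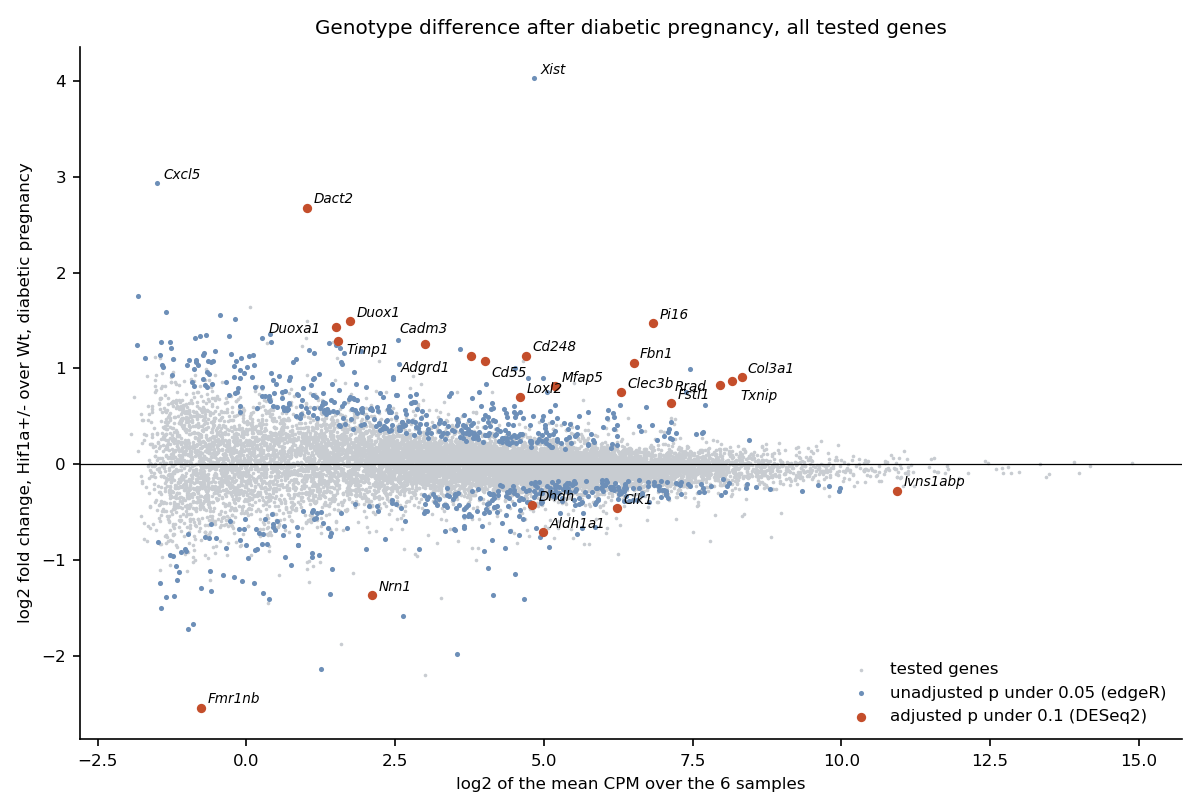
Log2 fold change of Hif1a+/- over Wt after diabetic pregnancy (vertical axis) against the log2 of the mean CPM over the 6 samples (horizontal axis) for the 14559 tested genes. Grey points are all tested genes, blue points those with an edgeR unadjusted p under 0.05 and red points those called by DESeq2 at an adjusted p under 0.1. Called genes above the zero line outnumber those under it, and Fbn1 (1.06) lies at a higher abundance than most of them. The untested Kap is not shown, and Xist, at the top, was high in sample 72 alone.

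The clearest single difference was in *Fbn1* (chromosome 2, 125300594 to 125507993, minus strand), which encodes fibrillin-1, the scaffold of the microfibrils around elastic fibres. Its level was 47.1, 73.5 and 56.3 CPM in the *Wt* samples (58.99 ± 13.4) and 118, 107 and 145 CPM in the *Hif1a*+/- samples (123 ± 19.5). The lowest *Hif1a*+/- value was above the highest *Wt* value, and the fold was 2.09 (log2 1.06, SE 0.16; DESeq2 adjusted p = 1.35e-06). The log2 fold change stayed between 0.92 and 1.25 when each of the 6 samples was left out in turn, and DESeq2 called *Fbn1* in all 6 of these fits. The 6 non-diabetic samples held 74.1 to 98.7 CPM, and there the log2 difference between genotypes was 0.030. The diabetic *Wt* samples thus reached at most 73.5 CPM and the diabetic *Hif1a*+/- samples at least 107 CPM, on either side of the non-diabetic range.

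Other elastic fibre and microfibril genes lay on the same side. *Mfap5*, a microfibril-associated glycoprotein that binds fibrillin, was at 22.7, 34.3 and 22.1 CPM in *Wt* and 43.3, 40.3 and 55.95 CPM in *Hif1a*+/- (1.76-fold, log2 0.81, SE 0.18; DESeq2 adjusted p = 0.0279). *Loxl2*, a lysyl oxidase that crosslinks collagen and elastin, was at 14.8, 21.9 and 18.5 CPM in *Wt* and 25.4, 31.3 and 33.5 CPM in *Hif1a*+/- (log2 0.70, SE 0.17; DESeq2 adjusted p = 0.0711). Neither gene overlapped between the groups. Without sample 72 DESeq2 called *Mfap5* but not *Loxl2*. Of the 21 elastic fibre genes tested, 18 had a higher mean in *Hif1a*+/-, 8 of them without overlap, and none was lower without overlap, against 4.29% higher and 3.58% lower without overlap among all tested genes. 10 were higher at an unadjusted p under 0.05 (6 without sample 72), against 2.96% of all genes, and 3 were called by DESeq2, against 0.155%. The median log2 fold change of the list was 0.28, between 0.18 and 0.40 with each sample left out, against -0.01 for all tested genes and -0.01 for the same list after non-diabetic pregnancy.

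Among the 31 collagen genes tested, 20 had a higher mean and 8 were higher at an unadjusted p under 0.05, or 3 without sample 72. At that p 2.96% of all tested genes were higher. *Col3a1*, a fibrillar collagen of the interstitium, was at 198, 222 and 246 CPM in *Wt* and 275, 560.1 and 422 CPM in *Hif1a*+/- (log2 0.91, SE 0.25; DESeq2 adjusted p = 0.0821). Its highest value was that of sample 72, and without this sample the log2 fold change was 0.65 and the DESeq2 adjusted p 0.664. *Col1a1*, the main chain of type I collagen, was at 105, 133 and 137 CPM and 167, 276 and 188 CPM (log2 0.75, SE 0.20; DESeq2 adjusted p = 0.101), again highest in sample 72. *Col5a1*, which nucleates collagen fibrils, had a log2 fold change of 0.53 (SE 0.16; DESeq2 adjusted p = 0.41). The median of the collagen list was 0.11 and ranged from 0.02 to 0.30 with each sample left out. The 10 small leucine-rich proteoglycans tested, which regulate fibril assembly, gave a median of -0.08, with *Bgn* at 0.26 and *Aspn* at -0.25, so the matrix genes did not all lie on 1 side.

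The matrix proteases and their inhibitors were led by *Timp1* (chromosome X, 20870166 to 20874735), a secreted inhibitor of matrix metalloproteinases. *Timp1* was low in every *Wt* sample, at 1.43, 1.91 and 1.71 CPM (1.68 ± 0.240), and was at 4.51, 3.03 and 4.76 CPM in the *Hif1a*+/- samples (4.11 ± 0.936). The fold was 2.43 (log2 1.28, SE 0.24; DESeq2 adjusted p = 0.0175; edgeR adjusted p = 0.532), and the 6 non-diabetic samples held 1.18 to 2.13 CPM. The *Hif1a*+/- diabetic samples were the only ones of the 12 above the non-diabetic range. *Mmp14*, a membrane-bound collagenase, was at 11.9, 16.3 and 12.8 CPM and 19.99, 26.5 and 17.6 CPM (log2 0.64, SE 0.19; DESeq2 adjusted p = 0.324). *Adamts2*, which trims procollagen, had a log2 fold change of 0.45 (SE 0.12). In this list 18 of 25 tested genes had a higher mean. At an unadjusted p under 0.05, 7 were higher (6 without sample 72), against 2.96% of all tested genes. The median was 0.20 against -0.04 after non-diabetic pregnancy. With each sample left out the median ranged from 0.092, without *Wt* sample 50, to 0.27.

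**Figure D2:**
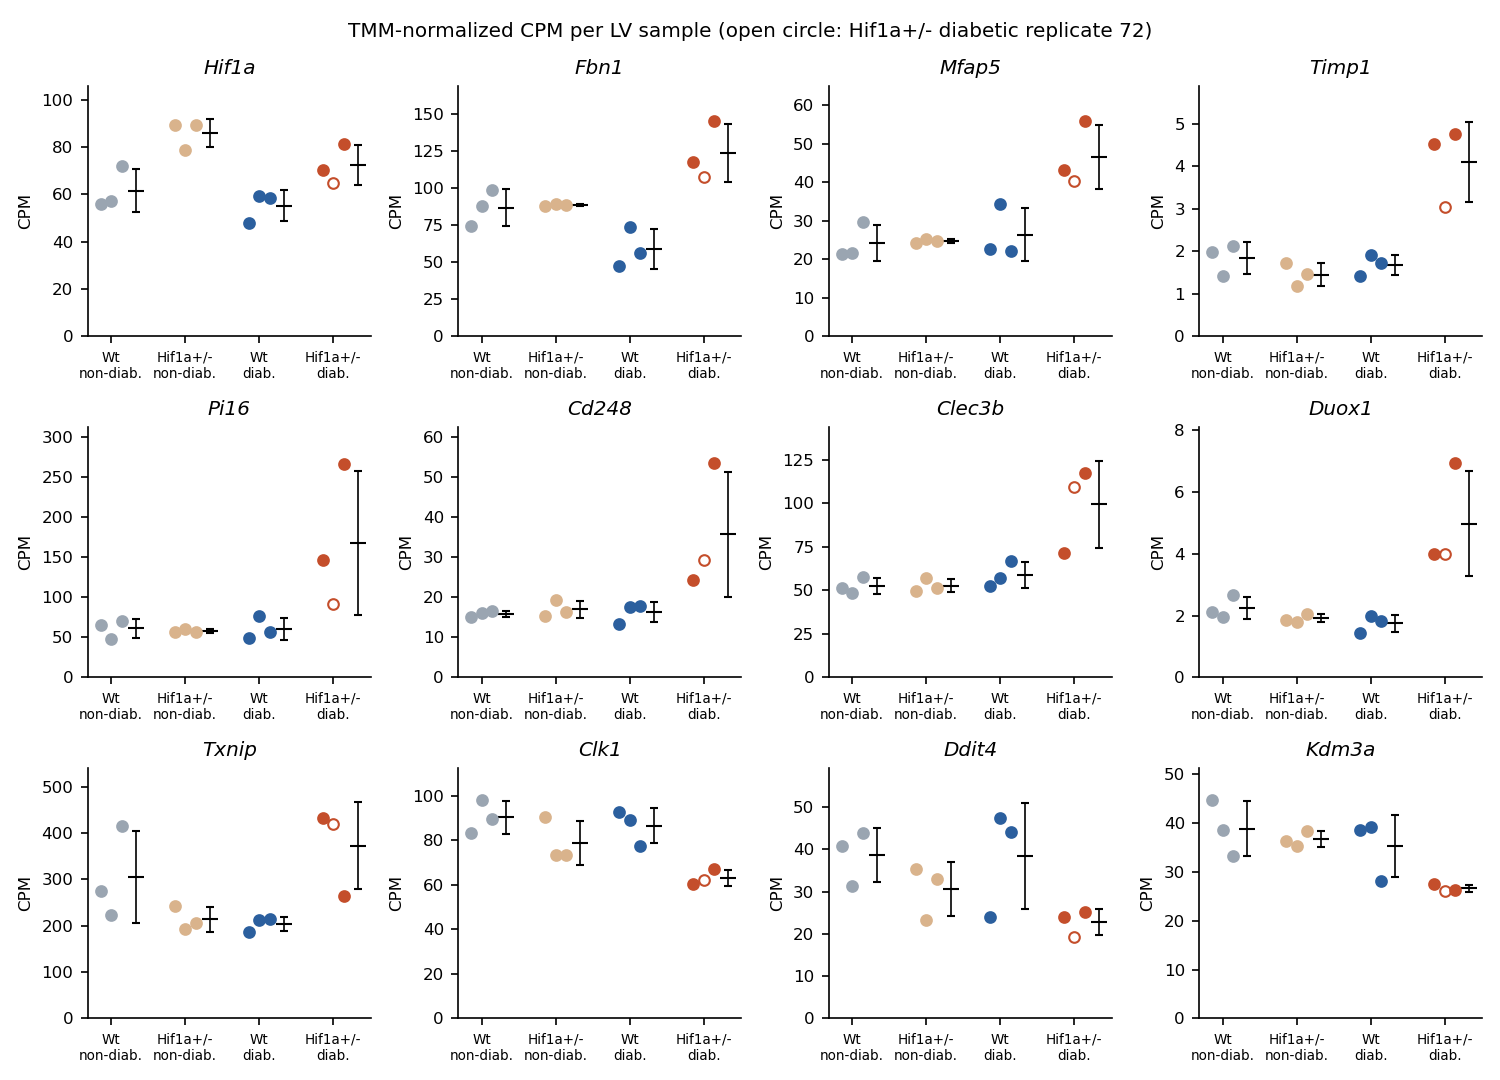
TMM-normalised CPM (vertical axes, linear and starting at 0) of 12 genes in each of the 12 LV samples, grouped by genotype and pregnancy on the horizontal axes. Points are samples, the open circle is Hif1a+/- diabetic sample 72, and the bar beside the points is the mean ± SD (n = 3). The Hif1a+/- diabetic samples lie above the Wt diabetic samples for Fbn1, Mfap5, Timp1, Pi16, Cd248, Clec3b, Duox1 and Txnip and under them for Clk1 and Kdm3a, Ddit4 overlaps at 1 Wt sample, and Hif1a lies higher in Hif1a+/- in both pregnancies.

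The list of fibroblast and adventitial markers held 5 of the DESeq2 calls, among them *Col3a1* and *Mfap5*, already described with the matrix genes. Adventitial fibroblasts are the stromal cells around vessels. *Pi16* (chromosome 17, 29317680 to 29330593), a peptidase inhibitor that marks these cells, was at 49.4, 76.3 and 55.96 CPM in *Wt* (60.5 ± 14.03) and 146, 91.3 and 267 CPM in *Hif1a*+/- (168 ± 89.8), with 2.77-fold in the fit (log2 1.47, SE 0.30; DESeq2 adjusted p = 0.0575). The *Hif1a*+/- samples did not overlap the *Wt* samples or the non-diabetic range of 47.6 to 70.7 CPM, but they spread from 91.3 to 267 CPM, and the log2 fold change ranged from 0.97 to 1.77 with each sample left out. *Cd248*, the stromal surface protein endosialin, was at 13.3, 17.5 and 17.8 CPM and 24.2, 29.4 and 53.6 CPM (2.19-fold, log2 1.13, SE 0.23; DESeq2 adjusted p = 0.00664). *Clec3b*, tetranectin, a plasminogen-binding matrix protein, was at 52.6, 56.8 and 66.9 CPM and 71.2, 109 and 118 CPM (1.69-fold, log2 0.76, SE 0.16; DESeq2 adjusted p = 0.0185). Sample 77 was the highest for all 3 genes. Without sample 72 DESeq2 called *Pi16* and *Cd248* but not *Clec3b*. *Fstl1*, a secreted glycoprotein of mesenchymal cells, was at 95.4, 127 and 109.8 CPM and 154, 143 and 219 CPM (log2 0.64, SE 0.14; DESeq2 adjusted p = 0.0533).

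Of the 16 fibroblast and adventitial markers tested, 13 had a higher mean, 6 did not overlap, 10 were higher at an unadjusted p under 0.05 (9 without sample 72) and 5 were called by DESeq2. Among all tested genes these shares were 4.29% without overlap, 2.96% at that p and 0.155% called. The median was 0.35, between 0.28 and 0.50 with each sample left out, against -0.01 after non-diabetic pregnancy. This list shares 3 genes with the collagens, 1 with the elastic fibre genes and 2 with the proteoglycans, so these counts are not separate. The summed level of the list did overlap between the groups, at 3589, 3818 and 5337 CPM in *Wt* and 3955, 5233 and 4812 CPM in *Hif1a*+/-. In bulk LV RNA, a different number of cells of a type and a different amount of RNA per cell cannot be told apart.

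Genes for oxidant production and redox control gave 3 further DESeq2 calls. *Duox1* (chromosome 2, 122315672 to 122347972, plus strand), a dual oxidase that makes hydrogen peroxide, was at 1.43, 1.97 and 1.83 CPM in *Wt* (1.74 ± 0.282) and 4.002, 4.001 and 6.93 CPM in *Hif1a*+/- (4.98 ± 1.69). The fold was 2.82 (log2 1.498, SE 0.24; DESeq2 adjusted p = 0.000889; edgeR adjusted p = 0.235). Its neighbour *Duoxa1* (122302191 to 122313730, minus strand), the maturation factor that the oxidase needs to leave the endoplasmic reticulum, was at 1.71, 1.09 and 1.83 CPM and 3.44, 2.29 and 6.62 CPM (2.70-fold, log2 1.43, SE 0.34; DESeq2 adjusted p = 0.0777). The annotated starts of this divergent pair are 1942 bases apart, and both genes were higher in all 3 *Hif1a*+/- samples than in any *Wt* sample. The pair did not share a sign in the non-diabetic samples, where the log2 difference was -0.24 for *Duox1* and 0.38, without overlap, for *Duoxa1*.

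*Txnip*, the thioredoxin-interacting protein, a glucose-responsive inhibitor of thioredoxin and of glucose uptake, was at 186, 212 and 214 CPM in *Wt* and 432, 420.3 and 264 CPM in *Hif1a*+/- (1.82-fold, log2 0.87, SE 0.21; DESeq2 adjusted p = 0.0533). Samples 66 and 72 were close to each other and sample 77 was lower but still above every *Wt* value. Without sample 72 the DESeq2 adjusted p was 0.25. After non-diabetic pregnancy the difference had the other sign (log2 -0.51). The study listed *Txnip* as lower in diabetic than in non-diabetic *Wt* hearts. Its list for diabetic *Hif1a*+/- hearts, also against non-diabetic *Wt*, does not hold the gene. The 31 tested NADPH oxidase and antioxidant genes did not share a direction, with 16 higher means and a median of 0.01.

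The remaining DESeq2 calls on the higher side fall outside these groups. *Rrad*, a small GTP-binding protein of striated muscle that restrains L-type calcium channels, was at 164, 157 and 219 CPM in *Wt* and 338, 338 and 284 CPM in *Hif1a*+/- (1.78-fold, log2 0.83, SE 0.18; DESeq2 adjusted p = 0.0272). *Dact2*, a modulator of WNT and TGF-beta signalling, rested on few reads, at 0.323, 0.476 and 0.857 CPM and 1.72, 1.19 and 7.59 CPM (log2 2.68, SE 0.65; DESeq2 adjusted p = 0.0427). Its *Hif1a*+/- samples spread widely, with sample 77 far above the other two. *Cadm3*, a cell adhesion molecule of nerve, was at 4.65, 4.87 and 4.51 CPM and 7.77, 7.65 and 18.4 CPM (log2 1.26; DESeq2 adjusted p = 0.0533), and *Adgrd1*, an adhesion G protein-coupled receptor, at 7.19, 9.94 and 8.62 CPM and 18.1, 10.5 and 28.02 CPM (log2 1.13; DESeq2 adjusted p = 0.0533). Both were highest in sample 77. *Cxcl5*, a chemokine that attracts neutrophils, had the largest fitted log2 fold change among the genes named for a small p (2.94, SE 0.65) at 0.0461, 0.0681 and 0.114 CPM and 0.257, 0.748 and 0.882 CPM. It had 10 counts in no *Wt* sample and was 1 of 27 among the 14559 genes that passed the filter through the *Hif1a*+/- samples alone, and DESeq2 gave it no adjusted p. *Slitrk4*, a neuronal transmembrane protein, had a log2 fold change of 1.10 (SE 0.26).

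The 7 genes that DESeq2 called lower do not belong to 1 list. *Clk1*, a kinase that phosphorylates SR splicing factors, was at 92.95, 89.4 and 77.7 CPM in *Wt* and 60.3, 62.3 and 67.2 CPM in *Hif1a*+/- (log2 -0.46, SE 0.10; DESeq2 adjusted p = 0.0711). *Dhdh*, a dihydrodiol dehydrogenase, was at 34.5, 28.9 and 32.9 CPM and 24.5, 24.7 and 22.3 CPM (log2 -0.43, SE 0.09; DESeq2 adjusted p = 0.0711). Replicates of both genes were close together, and neither gene overlapped between the groups. Without sample 72 DESeq2 called neither, and of the 7 lower calls it kept only *Nrn1*. *Aldh1a1*, which makes retinoic acid from retinal, was at 32.3, 37.00 and 49.2 CPM and 25.8, 18.8 and 27.97 CPM (log2 -0.70, SE 0.17; DESeq2 adjusted p = 0.0988). The study listed *Aldh1a1* as higher in diabetic than in non-diabetic *Wt* hearts, and did not list it for diabetic *Hif1a*+/- hearts. *Ivns1abp*, an actin-binding kelch protein, was at 2236, 2174 and 2051 CPM and 1795, 1801 and 1751 CPM (log2 -0.27, SE 0.08; DESeq2 adjusted p = 0.0978).

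The other 3 lower calls were of low abundance. *Nrn1*, neuritin, a membrane-anchored neurotrophic protein, was at 9.08, 4.12 and 5.37 CPM and 1.26, 3.52 and 2.60 CPM (log2 -1.36, SE 0.34; DESeq2 adjusted p = 0.0697). *Fmr1nb*, an X-linked gene next to *Fmr1*, was at 1.01, 0.510 and 1.54 CPM and 0.180, 0.176 and 0.132 CPM (log2 -2.54, SE 0.52; DESeq2 adjusted p = 0.0711). *Kap*, a kidney androgen-regulated protein, was at 2.67, 0.579 and 0.114 CPM and 0.0257, 0.0440 and 0 CPM (DESeq2 adjusted p = 0.0788), and its *Wt* level rested mainly on sample 50. *Fmr1nb* and *Kap* had 10 counts in no *Hif1a*+/- sample, and *Kap* did not pass the filter of the main test. *Nrn1* and *Fmr1nb* were lower without overlap after non-diabetic pregnancy too, with log2 differences of -1.17 and -2.03 in those samples.

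Several lower genes had small unadjusted p in edgeR and were not called by either tool. *Tmod4*, a tropomodulin that caps thin filaments in skeletal muscle, was at 23.5, 18.9 and 24.2 CPM in *Wt* and 11.2, 9.94 and 17.3 CPM in *Hif1a*+/- (log2 -0.79, SE 0.21; edgeR adjusted p = 0.816). *Trip10*, an adaptor of CDC42 and insulin signalling, was at 145, 136 and 138 CPM and 97.8, 118 and 117 CPM (log2 -0.34, SE 0.09; edgeR adjusted p = 0.816). Neither overlapped between the groups. The rest of the 12 lower genes with the smallest p were *Iqgap2*, a scaffold of the cytoskeleton, at -0.54 on the log2 scale, *Tsc22d3*, the glucocorticoid-induced GILZ, at -0.39, *Il15ra*, a receptor chain for interleukin-15, at -0.57, and the unnamed transcripts *Gm16299* at -1.40 and *Gm26944* at -1.72. The study listed *Tsc22d3*, like *Aldh1a1*, as higher in diabetic *Wt* hearts and not for diabetic *Hif1a*+/- hearts.

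Most complement genes had a higher mean in *Hif1a*+/-, and 1 of them was called. *Cd55*, decay-accelerating factor, which protects cells from complement, was at 8.25, 11.1 and 11.8 CPM in *Wt* and 17.1, 13.7 and 35.3 CPM in *Hif1a*+/- (log2 1.08, SE 0.27; DESeq2 adjusted p = 0.0697). *Cfp*, properdin, which stabilises the alternative pathway convertase, was at 9.08, 12.7 and 9.48 CPM and 16.3, 15.2 and 13.4 CPM (log2 0.52, SE 0.15; DESeq2 adjusted p = 0.431). *C3ar1*, the receptor for the C3a fragment, was at 5.76, 6.91 and 11.9 CPM and 13.9, 10.9 and 16.1 CPM (log2 0.75, SE 0.24). Of the 15 complement genes tested, 13 had a higher mean, 4 did not overlap, 7 were higher at an unadjusted p under 0.05 and 9 were so without sample 72, where all tested genes gave 4.29% higher without overlap and 2.96% at that p. The median was 0.52, between 0.26 and 0.79 with each sample left out, and -0.21 after non-diabetic pregnancy.

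Among 22 chemokine and cytokine genes tested, 15 had a higher mean and 6 were higher at an unadjusted p under 0.05 (7 without sample 72), with a median of 0.30 that ranged from 0.05 to 0.42 with each sample left out. The share of all tested genes higher at that p was 2.96%. *Ccl2*, which draws monocytes into tissue, was at 3.36, 1.67 and 2.11 CPM in *Wt* and 4.18, 3.69 and 6.04 CPM in *Hif1a*+/- (log2 0.97, SE 0.27; edgeR adjusted p = 0.863). *Ccl7*, a related monocyte chemokine, was at 1.71, 0.817 and 2.63 CPM and 2.49, 2.59 and 6.88 CPM (log2 1.25, SE 0.44), and *Ccl6* at 14.3, 31.4 and 20.8 CPM and 60.1, 26.5 and 37.3 CPM (log2 0.90, SE 0.34). No gene of the list was called by either tool.

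Macrophage and myeloid markers were also higher on average. Of all 14559 tested genes, 6975 had a higher mean and 431 (2.96%) were higher at an unadjusted p under 0.05. All 18 recruited monocyte, neutrophil and leukocyte markers tested had a higher mean, 6 of them at an unadjusted p under 0.05 (8 without sample 72), with a median of 0.53 and a range of 0.28 to 0.70 with each sample left out. 1 of these 18 passed the count filter only through the *Hif1a*+/- samples. Their summed level was 238, 258 and 369 CPM in *Wt* and 444, 354 and 489 CPM in *Hif1a*+/-, so that sample 72 overlapped *Wt* sample 80. Of the 18 resident macrophage markers, 17 had a higher mean and 5 passed an unadjusted p under 0.05 (9 without sample 72), with a median of 0.42 and a range of 0.26, without sample 77, to 0.59 with each sample left out. These summed to 432, 553 and 665 CPM against 734, 617 and 900 CPM, again with an overlap of samples 72 and 80. The resident macrophage markers include the C1q genes, 3 genes that are also on the complement list. *Lyz2*, a lysozyme of myeloid cells, was at 132, 149 and 213 CPM and 294, 205 and 259 CPM (log2 0.62, SE 0.21), *Itgam*, the integrin CD11b, had a log2 fold change of 0.65, *Laptm5*, a lysosomal protein of leukocytes, 0.50, *F13a1*, the factor XIII subunit of macrophages, 0.62, and *Stab1*, a scavenger receptor, 0.41. After non-diabetic pregnancy the medians were -0.19 for the recruited and -0.14 for the resident list. B and T lymphocyte markers were scarce, with 5 of 17 tested and sums of 13.1 to 26.9 CPM, and *Trbc2*, a T cell receptor chain, had a log2 fold change of -1.39 with 10 counts in no *Hif1a*+/- sample. Whether the level of these cells had a part in the complement and chemokine values was not tested.

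**Figure D3:**
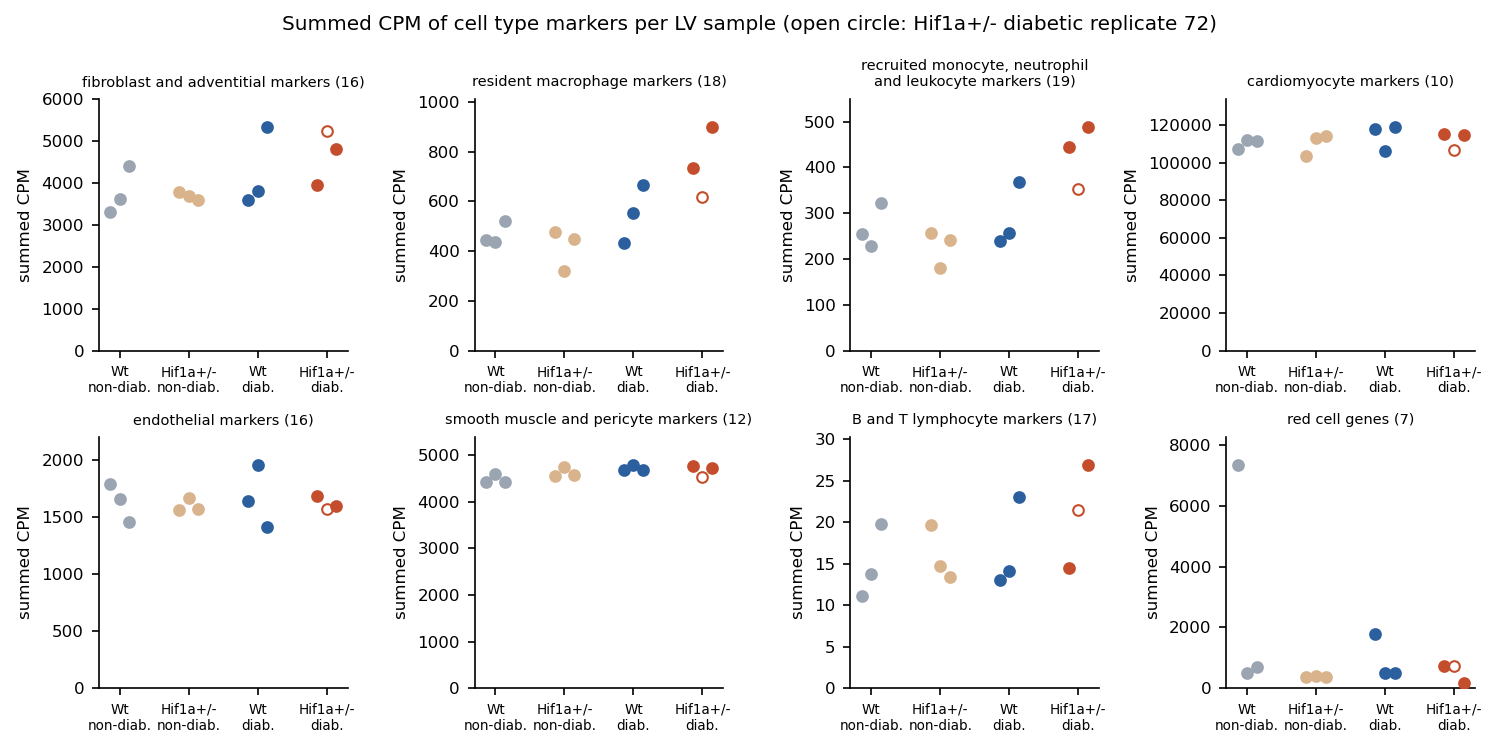
Summed CPM of cell type marker lists (vertical axes, linear and starting at 0) in each of the 12 LV samples, grouped by genotype and pregnancy, with the number of genes of a list in its title. The open circle is Hif1a+/- diabetic sample 72. Recruited myeloid markers reach 444 and 489 CPM in Hif1a+/- diabetic samples 66 and 77, above the 369 CPM of the highest Wt diabetic sample, while cardiomyocyte, endothelial and smooth muscle sums overlap between the groups. Most of the smooth muscle sum is Des, which is also on the sarcomere list. Its mean was 2932 CPM in Wt and 3074 CPM in Hif1a+/- diabetic samples, within mean sums of 4715 and 4669 CPM. The overlap of this sum therefore does not describe the other markers of the list.

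MHC class II and interferon genes did not follow the myeloid markers. The 9 MHC class II genes had a median of -0.22, and 1 left-out sample turned it, with a range from -0.63 to 0.34. *Cd74*, the invariant chain, had a log2 fold change of -0.45 and ranged from -0.94 to 0.25 with each sample left out. Of 29 interferon-stimulated genes, 2 were lower at an unadjusted p under 0.05 (0 without sample 72), *Irgm1* at -0.47 and *Gbp7* at -0.87, both GTPases induced by interferon-gamma, and the list's median of -0.09 ranged from -0.23 to 0.25. At that p 2.36% of all tested genes were lower.

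The HIF pathway was read next, from the oxygen sensors to the target genes. Of its 10 subunits and hydroxylases, *Hif1a* and *Arnt2*, an alternative partner subunit (0.94, SE 0.38), were higher without overlap, against 4.29% of all tested genes. *Arnt2* was scarce, at a mean of 0.43 CPM in *Wt* and 0.86 CPM in *Hif1a*+/-. After non-diabetic pregnancy its log2 difference was 0.79. *Arnt*, the usual partner, had a log2 fold change of -0.095, and *Epas1*, which encodes HIF-2α, -0.13. *Hif3a*, a family member that can restrain the others, was at -0.55 and *Egln3*, a prolyl hydroxylase that HIF itself induces, at -0.36. Both crossed 0 with 1 sample left out, ranging from -1.07 to 0.027 and from -0.62 to 0.064. *Egln1*, *Egln2*, *Vhl* and *Hif1an*, which encode the other hydroxylases and the degradation adaptor, lay between -0.20 and -0.0082. Apart from *Hif1a* and *Arnt2*, no gene of this list passed an unadjusted p under 0.05.

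Of 35 textbook HIF-1 target genes tested, 27 had a lower mean in *Hif1a*+/-, 4 of them without overlap, and 3 were lower at an unadjusted p under 0.05, also without sample 72. Among all tested genes 3.58% were lower without overlap and 2.36% at that p. None was called by either tool over the 6 samples. *Ddit4* (REDD1), an inhibitor of mTORC1, was at 24.1, 47.4 and 44.03 CPM in *Wt* and 24.04, 19.3 and 25.1 CPM in *Hif1a*+/- (log2 -0.76, SE 0.23; edgeR adjusted p = 0.863; DESeq2 adjusted p = 0.324). *Wt* sample 50 lay among the *Hif1a*+/- samples and well under the other *Wt* samples, so the groups overlapped, and without it DESeq2 called *Ddit4*. *Kdm3a*, an oxygen-dependent histone demethylase, was at 38.6, 39.3 and 28.04 CPM and 27.5, 26.2 and 26.4 CPM (log2 -0.41, SE 0.13; DESeq2 adjusted p = 0.624). *Pdk1*, a kinase that blocks pyruvate entry into mitochondria, was at 461, 374 and 403 CPM and 346, 350.5 and 351 CPM (log2 -0.24, SE 0.09; DESeq2 adjusted p = 0.988). The list's median was -0.13, between -0.17 and -0.05 with each sample left out, and -0.08 after non-diabetic pregnancy, against -0.01 for all tested genes.

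*Vegfa*, the angiogenic factor induced by HIF-1, was at 479.8, 469 and 211 CPM in *Wt* and 317, 277 and 218 CPM in *Hif1a*+/- (log2 -0.52, SE 0.33; edgeR adjusted p = 0.863). *Wt* sample 80 lay under every *Hif1a*+/- sample and samples 50 and 7 lay above, so the groups overlapped. Of the 14 VEGF and angiopoietin ligands and receptors, 0 passed an unadjusted p under 0.05 in edgeR, and the median was -0.06; *Pgf*, placental growth factor, was at -0.28 and *Angpt2*, a ligand that loosens vessels, at -0.41.

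Promoters are shown for the 3 HIF-1 target genes with the smallest p and for *Timp1* and *Fbn1*, called on the higher side, to set the HIF-1 core motif beside the direction of each gene. The sequences are from RefSeq (GRCm38.p6), run 5′ to 3′ on the strand of the gene from 250 bases before to 50 bases after its start, and capitals mark ACGTG or GCGTG, searched on both strands. All matches in these 5 windows are on the strand shown, and the motifs do not overlap. The starts are those of RefSeq, and the start used for *Fbn1* lies inside the gene as annotated by GENCODE, so its window does not cover the GENCODE start given with its coordinates.
Fbn1 chr2:125506389-125506688 (minus strand): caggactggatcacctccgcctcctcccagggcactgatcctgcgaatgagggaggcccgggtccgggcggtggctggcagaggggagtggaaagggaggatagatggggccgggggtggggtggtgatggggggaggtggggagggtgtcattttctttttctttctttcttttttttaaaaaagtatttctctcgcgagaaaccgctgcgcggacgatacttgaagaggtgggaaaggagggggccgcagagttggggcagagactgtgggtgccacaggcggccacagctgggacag
Timp1 chrX:20869916-20870215 (plus strand): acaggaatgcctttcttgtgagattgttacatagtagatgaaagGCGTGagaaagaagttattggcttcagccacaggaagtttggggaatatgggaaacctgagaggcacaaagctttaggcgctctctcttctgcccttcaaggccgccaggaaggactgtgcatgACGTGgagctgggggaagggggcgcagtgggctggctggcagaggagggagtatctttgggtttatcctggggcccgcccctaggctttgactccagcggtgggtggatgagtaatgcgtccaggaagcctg
Ddit4 chr10:59951721-59952020 (minus strand): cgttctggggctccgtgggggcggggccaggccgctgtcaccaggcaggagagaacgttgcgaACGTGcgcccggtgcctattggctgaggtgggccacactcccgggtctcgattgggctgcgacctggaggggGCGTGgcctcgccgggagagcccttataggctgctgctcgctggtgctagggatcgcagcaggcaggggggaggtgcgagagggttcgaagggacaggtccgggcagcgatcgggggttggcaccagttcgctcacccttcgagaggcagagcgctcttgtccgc
Kdm3a chr6:71632868-71633167 (minus strand): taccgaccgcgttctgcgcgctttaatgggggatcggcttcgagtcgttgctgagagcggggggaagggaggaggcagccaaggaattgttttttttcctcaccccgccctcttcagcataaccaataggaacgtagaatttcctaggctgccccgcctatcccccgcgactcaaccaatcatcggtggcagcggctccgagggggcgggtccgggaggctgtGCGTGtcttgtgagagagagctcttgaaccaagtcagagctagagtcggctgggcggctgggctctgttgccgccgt
Pdk1 chr2:71872974-71873273 (plus strand): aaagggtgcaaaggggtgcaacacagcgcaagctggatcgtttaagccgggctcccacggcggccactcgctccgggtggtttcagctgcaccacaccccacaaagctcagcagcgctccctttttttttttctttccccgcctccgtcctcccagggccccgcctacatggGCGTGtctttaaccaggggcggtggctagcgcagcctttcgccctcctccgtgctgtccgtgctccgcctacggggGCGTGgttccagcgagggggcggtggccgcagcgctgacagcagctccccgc
In these windows *Ddit4* and *Timp1* each held 1 ACGTG and 1 GCGTG, *Pdk1* held 2 GCGTG, *Kdm3a* 1 GCGTG and *Fbn1* none of the letters searched. ACGTG on either strand stood in 3107 of the 10829 tested genes with such a window (28.7%), in 5886 of 27025 windows overall (21.8%), and in 20 of 27 of the HIF-1 target list (74.1%). Among the DESeq2 calls it stood in 3 of 11 higher genes and 1 of 4 lower genes with a window. With GCGTG added, the shares were 66% of the tested genes and 92.6% of the target list. A match describes the letters of the window and not a binding site.

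Energy metabolism showed small differences. Of 30 glycolysis and pyruvate genes tested, 24 had a lower mean, 4 were lower without overlap, and 4 were lower at an unadjusted p under 0.05, also without sample 72, against 3.58% and 2.36% of all tested genes. The list shares 10 genes with the HIF-1 targets. *Mpc1*, a subunit of the mitochondrial pyruvate carrier, was at 96.2, 84.5 and 85.9 CPM in *Wt* and 76.3, 73.5 and 70.6 CPM in *Hif1a*+/- (log2 -0.27, SE 0.08; edgeR adjusted p = 0.863). *Pfkfb2*, the cardiac enzyme that makes fructose 2,6-bisphosphate, had a log2 fold change of -0.39 (SE 0.13). The list's median was -0.10 against -0.07 after non-diabetic pregnancy. Of 33 fatty acid genes, 0 passed an unadjusted p under 0.05 in edgeR and the median was -0.03, with *Acadm*, the medium-chain acyl-CoA dehydrogenase, at -0.17 and *G0s2*, an inhibitor of lipolysis, at -0.52. The 80 nuclear-encoded respiratory chain genes had a median of -0.05 with 1 lower at an unadjusted p under 0.05, *Ndufs1* of complex I (-0.22).

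Cardiomyocyte genes differed little. The 10 cardiomyocyte markers had a median of -0.02 and 0 at an unadjusted p under 0.05, and the 32 sarcomere genes a median of -0.04 with 1 lower at that level (0 without sample 72), *Mylk3*, the cardiac myosin light chain kinase, at 795, 677 and 659 CPM in *Wt* and 628, 527 and 606 CPM in *Hif1a*+/- (log2 -0.28, SE 0.11; edgeR adjusted p = 0.863). *Myh7*, the slow myosin heavy chain of the fetal programme, had a log2 fold change of 0.20, *Nppa*, atrial natriuretic peptide, 0.35, and *Nppb*, its brain-type relative, -0.54, and 0 of the 11 fetal and stress genes passed an unadjusted p under 0.05. Among 20 sodium and potassium channel genes, *Kcna5* was lower (-0.39) and *Kcnq1* higher (0.32) at an unadjusted p under 0.05, with a median of -0.02. Of 15 connexins and neurohormone receptors, *Npr3*, the clearance receptor of natriuretic peptides, was lower at that level (-0.25), while without sample 72 the list held 0 lower and 1 higher gene at that level. Of 22 calcium handling genes none passed it. The medians of these lists were -0.10 and -0.06. Of all tested genes, 2.96% were higher and 2.36% lower at an unadjusted p under 0.05 in edgeR. None of these cardiomyocyte, channel, receptor and calcium genes was called by either tool.

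Vessel wall genes lay on different sides. Among 16 endothelial markers the median was -0.02 and 4 were higher both without overlap and at an unadjusted p under 0.05: *Sele* (0.95) and *Selp* (1.15), the selectins on which leukocytes roll, *Vwf*, and *Icam1*, an adhesion molecule for leukocytes (0.41). Of all tested genes, 4.29% were higher without overlap and 2.96% were higher at that p. *Vwf*, which tethers platelets, was at 81.8, 101 and 67.2 CPM in *Wt* and 144, 118 and 117 CPM in *Hif1a*+/- (log2 0.60, SE 0.21). The summed endothelial level was 1634, 1956 and 1415 CPM against 1679, 1569 and 1591 CPM, so these 4 genes were higher while the marker sum overlapped. *Pdpn*, a lymphatic marker also made by stromal cells, had a log2 fold change of 0.55, and the 6 lymphatic markers a median of 0.14. Of 12 smooth muscle and pericyte markers, 10 had a lower mean, 3 were lower without overlap and 3 at an unadjusted p under 0.05, also without sample 72, against 3.58% and 2.36% of all tested genes. The 3 genes with that p were *Myh11*, smooth muscle myosin, at 28.2, 32.95 and 19.1 CPM and 17.6, 15.5 and 16.9 CPM (log2 -0.69, SE 0.24), *Tagln*, an actin-binding protein, at 20.2, 31.4 and 19.5 CPM and 14.5, 16.6 and 15.8 CPM (log2 -0.61, SE 0.17), and *Cnn1*, calponin (-1.05). The list's median was -0.17, between -0.30 and -0.14 with each sample left out, and 0.03 after non-diabetic pregnancy.

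**Figure D4:**
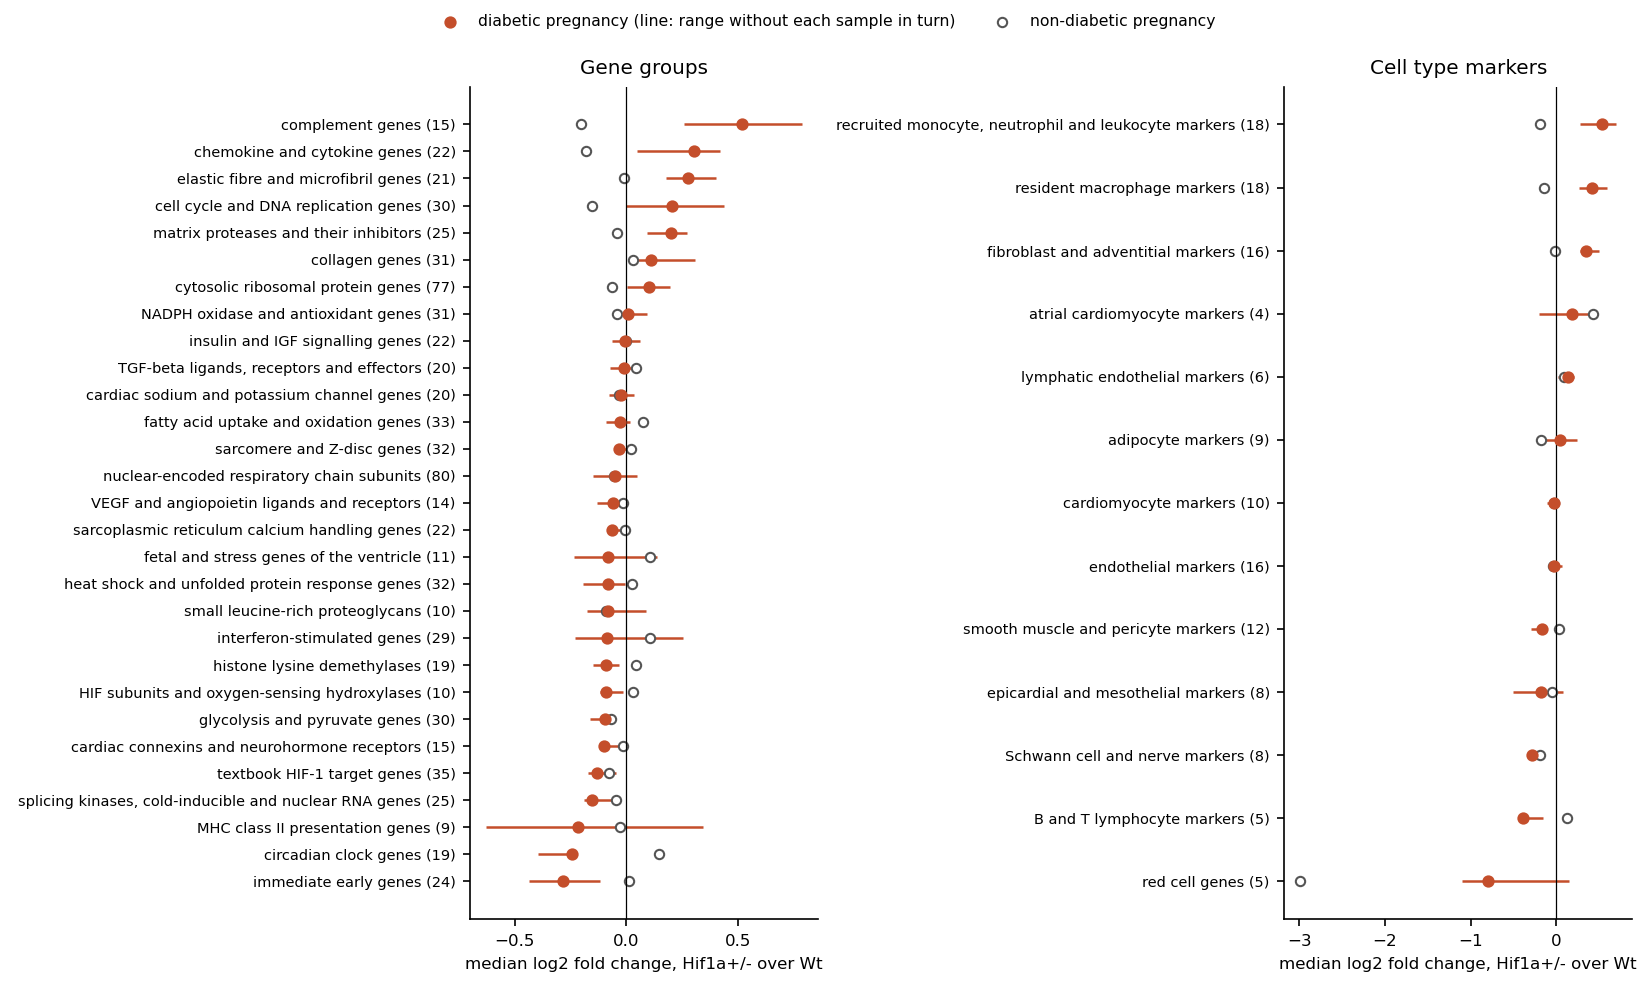
Median log2 fold change of Hif1a+/- over Wt (horizontal axes) for each pathway list and cell type marker list (vertical axes, with the number of genes tested). Filled points are diabetic pregnancy with a line for the range when each of the 6 samples was left out, and open points are non-diabetic pregnancy. Recruited myeloid (0.53), complement (0.52), resident macrophage (0.42) and fibroblast markers (0.35) lie on the higher side after diabetic pregnancy, and the clock (-0.24) and immediate early genes (-0.28) on the lower side.

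Clock and immediate early genes, which follow the time of day and acute stimuli, were lower on balance. *Per2*, a repressor of the clock, was at 39.03, 48.9 and 21.8 CPM in *Wt* and 10.4, 10.7 and 20.7 CPM in *Hif1a*+/- (log2 -1.41, SE 0.51), and *Cry1*, its partner, had a log2 fold change of -0.66 (SE 0.22). Of 19 clock genes, 15 had a lower mean and 2 were lower at an unadjusted p under 0.05 (1 without sample 72), with a median of -0.24. *Nr4a1*, an immediate early nuclear receptor, was at 24.98, 39.4 and 11.99 CPM and 10.6, 8.27 and 10.99 CPM (log2 -1.37, SE 0.39), and *Nr4a3* at 19.7, 33.5 and 2.63 CPM and 6.80, 3.03 and 4.24 CPM (log2 -1.98, SE 0.70). In *Per2*, *Nr4a1* and *Nr4a3*, *Wt* sample 80 was the lowest of its group, and for *Nr4a3* it lay under every *Hif1a*+/- sample. Of 24 immediate early genes, 19 had a lower mean, 2 were lower and 1, *Myc* (0.59), was higher at an unadjusted p under 0.05, and the median of -0.28 ranged from -0.44 to -0.12. The shares of all tested genes at that p were 2.36% lower and 2.96% higher.

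Genes of the nucleus showed small differences as well. Of 25 genes for splicing kinases, cold-inducible and nuclear RNAs, 19 had a lower mean and 3 were lower at an unadjusted p under 0.05 (1 without sample 72), among them *Clk1* and *Srsf3*, an SR splicing factor (-0.32), and the median was -0.15. Of 19 histone lysine demethylases, 15 had a lower mean and 3 were lower at that level (2 without sample 72), led by *Kdm3a* and *Kdm4b* (-0.21), with a median of -0.09. Of 30 cell cycle genes, 23 had a higher mean and 3 were higher at that level, *Mcm7* (0.41) and *Mcm4* (0.28) of the replicative helicase among them, but 0 were so without sample 72, and the median of 0.20 ranged from -0.0019 to 0.43. Ribosomal protein genes had a higher mean in 72 of 77 cases with a median of only 0.10, and 1 of them passed an unadjusted p under 0.05, *Rpl3* (0.28). Of 32 heat shock and unfolded protein response genes, 26 had a lower mean and 0 passed that level, with *Hsp90aa1* at -0.71. The shares of all tested genes at that level were 2.96% higher and 2.36% lower.

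*Tgfb1* and *Tgfb2*, ligands of the TGF-beta pathway, were nearly level. Their log2 fold changes were -0.013 and 0.011, and both changed sign when single samples were left out. Of 20 genes of this pathway 3 were higher without overlap and 0 lower, against 4.29% and 3.58% of all tested genes. At an unadjusted p under 0.05, 2 were higher, against 2.96% of all tested genes. These were *Tgfbr2*, the type II receptor (0.29), and *Nbl1*, a BMP antagonist (0.50). The median was -0.01. *Postn*, periostin of activated fibroblasts, was at 0.25. Of 22 insulin and IGF genes 1 was higher at that level, *Igfbp4*, an IGF-binding protein (0.33), with a median of -0.01. Red cell genes, a sign of residual blood, summed to between 185 and 1771 CPM without a shared order of the groups. Epicardial, adipocyte, nerve and atrial markers had medians of -0.17, 0.05, -0.28 and 0.18, and of these lists only the nerve marker *Cadm3* passed an unadjusted p under 0.05.

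The genes for which the study designed RT-qPCR assays include a subset picked by its authors from these RNA-seq samples, so their direction is not independent evidence. *Cd248*, *Timp1* and *Cfp* are described above with their groups. *Ccl9*, a macrophage chemokine, had a log2 fold change of 0.76 (SE 0.35), *Msr1*, a scavenger receptor, 0.41 (SE 0.23), *Lrp1*, an endocytic receptor, 0.34 (SE 0.16), and *Axl*, a receptor for apoptotic cells, 0.27 (SE 0.15), none of them called by either tool. *Cd36*, the fatty acid transporter, was at 2291, 2536 and 2010.0 CPM in *Wt* and 2352, 2038 and 2112 CPM in *Hif1a*+/- (log2 -0.072, SE 0.11), and *Ldha*, which reduces pyruvate to lactate, at 1168, 875 and 952 CPM and 995, 850.2 and 954 CPM (log2 -0.098, SE 0.12). The groups overlapped for both. *Hprt*, the reference gene of those assays, was at 0.0012 (SE 0.09), and *Herc3*, a ubiquitin ligase, at -0.083 (SE 0.10).

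Whether the genotype difference depended on the pregnancy was tested by the interaction, that is the difference after diabetic minus that after non-diabetic pregnancy. edgeR called 0 of 14559 genes (0%; smallest adjusted p 0.998), with 365 genes at an unadjusted p under 0.05, and DESeq2 called 0 genes. In the non-diabetic comparison alone, edgeR called 0 genes with 141 at an unadjusted p under 0.05, and DESeq2 called 1. The interaction for *Fbn1* was 1.03 on the log2 scale (SE 0.22), for *Timp1* 1.61 (SE 0.35), for *Duox1* 1.73 (SE 0.35) and for *Txnip* 1.38 (SE 0.30), each with an edgeR adjusted p of 0.998. The 4 genes are among the 10 with the smallest unadjusted interaction p, and none passed the adjustment over all genes.

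**Figure D5:**
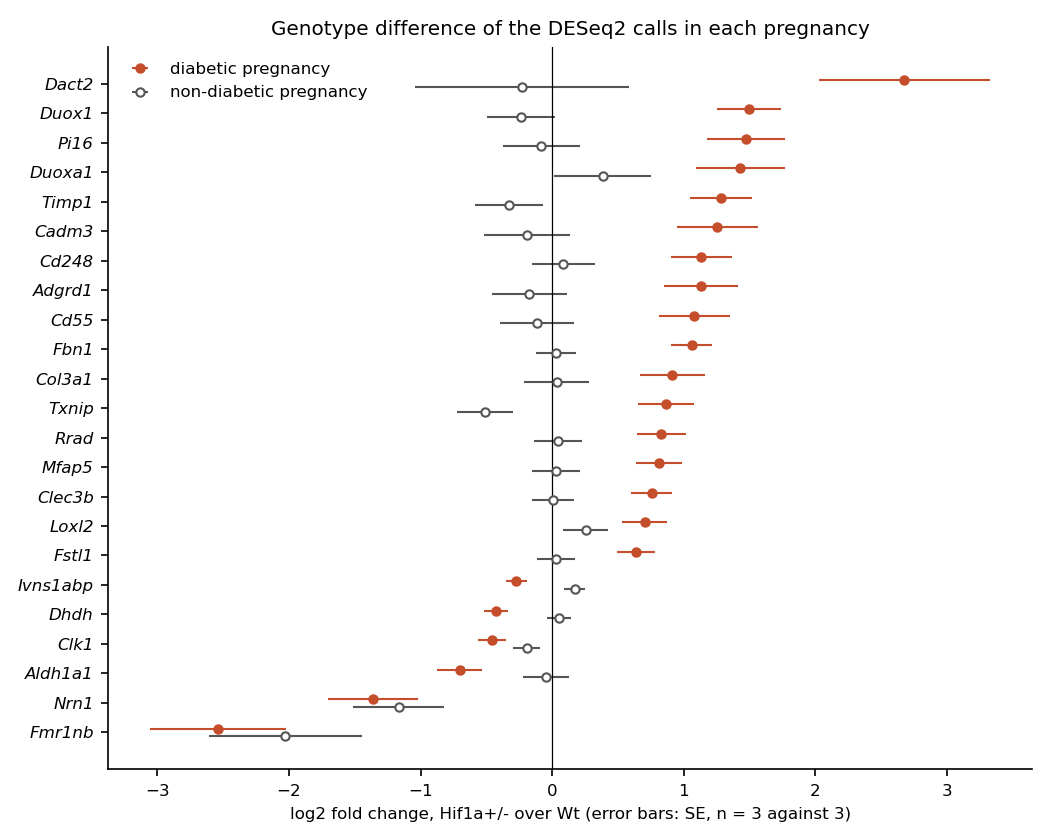
Log2 fold change of Hif1a+/- over Wt (horizontal axis, error bars SE, n = 3 against 3) after diabetic and after non-diabetic pregnancy for the genes listed on the vertical axis. The genes are the DESeq2 calls after diabetic pregnancy, so their distance from 0 in that comparison is set by the choice. Fbn1 lies at 1.06 after diabetic and at 0.03 after non-diabetic pregnancy. Nrn1 and Fmr1nb lie under 0 in both pregnancies. Txnip, Timp1, Duox1, Cd55 and Ivns1abp are among the genes that lie on different sides of 0. Kap, not tested by edgeR, is left out.

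Genes near *Hif1a* on chromosome 12 were read because a null allele can carry linked sequence of another strain. Within 5 Mb of the start of *Hif1a*, 65 genes were tested, with 3 higher and 3 lower without overlap and a median log2 fold change of -0.01. These counts are near the shares of all tested genes, 4.29% higher and 3.58% lower. *Rab15* and *Fut8* were higher without overlap in both pregnancies, as *Hif1a* was. How many of all tested genes were so in both pregnancies was not counted. Of the 65, 53.8% had the same sign in both pregnancies, against 47.4% of all tested genes. *Rhoj*, a vascular small GTPase, had a log2 fold change of 0.38, *Six4*, a homeobox gene, -0.48, and *Max*, the partner of MYC, -0.26.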

How the data were processed

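The deposited files hold whole-number counts of reads per gene, without normalization. According to the methods and labels, the authors trimmed 3′-seq reads (Trimmomatic), removed ribosomal reads, aligned the rest with STAR 2.5.2b to GRCm38 with GENCODE M8 and counted them with htseq-count; the strand setting is not given in the sources used here, so reads of a gene and of an antisense gene may be mixed. Reads placed at several sites (12.37% to 17.02%) were not counted, so genes with close copies are uncertain. The normalized counts that the authors also deposited were not used. Samples were grouped by their titles. No library was a copy of another of its own group, since the chi-square per gene of the 12 within-group pairs was 5.191 to 42.92, where 1 stands for counting noise alone. Pairs of libraries from different groups were not compared in this way.

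Counts of the 12 samples were fitted with edgeR 4.0.16 (R 4.3.3, TMM, quasi-likelihood, 1 mean per group, 8 residual degrees of freedom, biological coefficient of variation 13.7%). Adjusted p are Benjamini-Hochberg values over all tested genes (threshold 0.1), and the SE is the log2 fold change divided by the square root of F. The alternatives were DESeq2 1.42.0, limma-voom 3.58.1, other filters, size factors, fits and left-out samples. The 3 mice of a group came from different litters according to the study. For genes of a few CPM or less, counting noise adds to the spread between mice.

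The comparison, the gene lists and the tests were chosen with earlier results of these data known. The genes named are *Hif1a*, the 12 higher and 12 lower with the smallest p, all DESeq2 calls, the 3 with the smallest p of each list (more in short lists), the RT-qPCR genes, the 10 with the smallest interaction p and 3 neighbours of *Hif1a*. Symbols and coordinates are from GENCODE M21 (GRCm38), which held 46488 of the 46983 identifiers.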

Additional observations from a re-analysis of the deposited data

Results flagged for a closer look

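Of the 119 named genes with a fold change, 5 differed without overlap between genotypes in both pregnancies, in opposite directions. The interaction was tested for each by edgeR's quasi-likelihood test, and the adjusted p was 0.998 in all 5. None of these differences between pregnancies therefore passed the threshold. The named genes include those with the smallest interaction p, so opposite directions were partly selected for. How many of all tested genes show this pattern was not counted.

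*Ptx3*, a pentraxin of innate immunity, had an interaction of 1.95 on the log2 scale (SE 0.41). After diabetic pregnancy it was at 0.415, 0.579 and 0.400 CPM in *Wt* and 0.641, 0.835 and 0.662 CPM in *Hif1a*+/-, and after non-diabetic pregnancy at 0.748, 0.866 and 0.859 CPM and 0.351, 0.338 and 0.252 CPM. All of these levels are low.

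*Ccl2* had an interaction of 1.48 (SE 0.38), higher in *Hif1a*+/- after diabetic pregnancy and at 3.49, 4.15 and 2.74 CPM in *Wt* against 2.22, 2.37 and 2.67 CPM in *Hif1a*+/- after non-diabetic pregnancy. For *Cfp* the interaction was 0.84 (SE 0.22), with 9.09, 9.93 and 8.38 CPM against 7.37, 6.15 and 8.36 CPM after non-diabetic pregnancy. For *Icam1* it was 0.77 (SE 0.25), with 19.9, 19.8 and 17.8 CPM in *Wt* and 22.6, 20.97 and 32.9 CPM in *Hif1a*+/- after diabetic pregnancy and 25.9, 17.1 and 17.5 CPM and 14.8, 15.96 and 15.96 CPM after non-diabetic pregnancy. These 4 genes act in inflammation. The recruited myeloid markers summed to between 238 and 369 CPM in *Wt* and between 354 and 489 CPM in *Hif1a*+/- after diabetic pregnancy, and to between 229 and 323 CPM and between 179.7 and 256 CPM after non-diabetic pregnancy, and their part in these values was not tested.

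*Ivns1abp* went the other way, with an interaction of -0.45 (SE 0.11). It was lower in *Hif1a*+/- after diabetic pregnancy and higher after non-diabetic pregnancy, at 2077, 2377 and 2158 CPM in *Wt* and 2437, 2516 and 2498 CPM in *Hif1a*+/-.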

How the results depend on the processing

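The count of genes called after diabetic pregnancy was 0 in the main test. It was also 0 with robust fitting, DESeq2 size factors, the default filter of edgeR, 10 counts in every sample, the 6 samples alone, a threshold of 0.05 and the newer quasi-likelihood method. The legacy method is the default of this version and gave the main values by construction. The count was 24 with DESeq2, 22 with DESeq2 and the 10-count filter, 1 with limma-voom (*Fbn1*) and 220 without a filter on low counts, 208 of which pass the filter. With each of the 6 samples left out, edgeR called 0 to 2 genes: *Clec3b* without sample 66, *Pi16* without sample 72, and *Fbn1* and *Vcan* without *Wt* sample 7, *Vcan* being named after its values were seen. DESeq2 called 2 (without *Wt* sample 50) to 316 (without *Wt* sample 80) genes. Of its 24 calls, 12, 14 and 7 were called again without samples 66, 72 and 77, and 1, 14 and 19 without *Wt* samples 50, 7 and 80. The interaction count was 0 in the main test and with DESeq2, 4 with DESeq2 and the 10-count filter, 0 to 1 in edgeR with each of the 12 samples left out, and 0 to 12 in DESeq2, the highest without sample 72. The cause of these shifts was not tested. DESeq2 with the 10-count filter, its interaction fits without single samples and the newer quasi-likelihood method were added after the data had been seen.

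Of 952 fold changes of 119 named genes under alternatives, 3 passed an adjusted p of 0.1, those of *Clec3b*, *Pi16* and *Fbn1* above. The sign of 11 genes changed when single samples were left out, and in no other setting. The log2 fold change of *Egln3* ranged from -0.62 to 0.064 and that of *Hif3a* from -1.07 to 0.027. *Egln1* ranged from -0.071 to 0.065, *Vhl* from -0.058 to 0.051, *Tgfb1* from -0.12 to 0.096, *Tgfb2* from -0.096 to 0.095, *Cd74* from -0.94 to 0.25, *Cd36* from -0.15 to 0.011, *Hprt* from -0.076 to 0.051, *Herc3* from -0.18 to 0.029 and *Ldha* from -0.18 to 0.031. Of 43 list medians, 17 changed sign under at least 1 alternative. No paired analysis was possible because the titles give animal numbers that no groups share, and the replicate field of the labels holds the same number for all samples of a group.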
